A study of Mus musculus with 6 samples.

Results

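Liver sinusoidal endothelial markers were followed in the RNA of whole livers from Hom mice, in which Nek7 was deleted in hepatocytes, and from WT mice. The members were the 10 genes Stab1, Stab2, Lyve1, Mrc1, Fcgr2b, Clec4g, Kdr, Eng, Dnase1l3 and Oit3, taken from the 17975 genes of the expression table by their symbols. Hom mice were Nek7 fl/fl with Alb-Cre, a Cre recombinase driven by the albumin promoter, which is active in hepatocytes. The controls, here WT, are described only as Ctrl or wild type, so whether they carried the floxed allele or the Cre is not given in the sources used here. The study used mice of both sexes on a C57BL/6 background for its knockout experiments, with controls that it describes as matched for sex and age. The ages it gives for knockout mice run from weeks to months. The age and sex of each of these 6 mice are not given in the sources used here. Each group had 3 livers, 1 per mouse, and RNA came from pieces of whole tissue, so that all liver cell types contributed to each value.

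Liver sinusoidal endothelial cells line the capillaries between the plates of hepatocytes. Their wall is fenestrated and lacks an organised basement membrane, and they clear waste molecules, immune complexes and glycoproteins from the blood by endocytosis. The members of the set are known for parts of that work. Stabilin 1 (Stab1), stabilin 2 (Stab2), LYVE1, the mannose receptor (Mrc1) and the inhibitory Fc receptor (Fcgr2b) take up or bind ligands from the blood, CLEC4G (also called LSECtin) binds glycans, VEGFR2 (Kdr) and endoglin (Eng) are receptors for growth factor signals, and DNASE1L3 and OIT3 are secreted. In chronic liver disease these cells can lose fenestrae and take on features of ordinary capillaries, a change known as capillarization. Several members are also expressed elsewhere: Mrc1, Stab1, Lyve1 and Fcgr2b in macrophages, Kdr and Eng in other endothelium, and Lyve1 in lymphatic vessels.

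Deposited expected counts summed to 19349418 to 19476955 per WT liver and 19392568 to 19730236 per Hom liver. Nek7 was at 62.9, 69.1 and 63.7 CPM (read counts scaled to library size with TMM factors) in WT livers and 14.5, 18.1 and 16.7 in Hom livers, 25.2% of the WT mean, as the labels say. Hom replicate 1 stood apart from the other 5 livers: counts of Ddx3y and Kdm5d, which are Y-linked, were 0 there and at least 243 elsewhere. Eif2s3y, also Y-linked, had 4 counts there and at least 582 elsewhere, while Uty, Y-linked too, had 149 there and at least 464 elsewhere. As every WT liver had counts of these genes, sex may not be balanced between the groups, and its effect was not tested. Results are therefore given with and without Hom replicate 1 where that matters. Of 13805 genes tested, edgeR's quasi-likelihood test (Benjamini-Hochberg adjusted p under 0.05) called 20.1% lower and 21.5% higher in the Hom group, and for 27.0% the highest Hom liver was under the lowest WT liver. The counts in each gene list below are to be read beside these shares. Scaling mattered as well. Library size alone, without TMM factors, moved the median of all genes' log2 fold changes from near 0 to 0.45, a shift that applies to every gene alike.

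All 10 members were expressed in every liver, with 73 to 1607 counts, and none was removed by the filter. In the Hom group 7 were lower (Clec4g, Dnase1l3, Oit3, Kdr, Stab2, Fcgr2b and Mrc1), none was higher, and Stab1, Eng and Lyve1 did not pass the test. Thus 7 of 10 stood against the 20.1% of all genes that were lower. The same 7 genes had no overlap between groups, where 27.0% of all genes had none in this direction. The median log2 fold change of the members was −0.75, against −0.0018 for all tested genes, and single members ranged from −2.13 (Clec4g) to 0.29 (Lyve1). The members thus differed widely among themselves in the size of the change. With bulk RNA, fewer sinusoidal cells and less RNA per cell cannot be told apart, which holds for every value that follows.

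**Figure D1:**
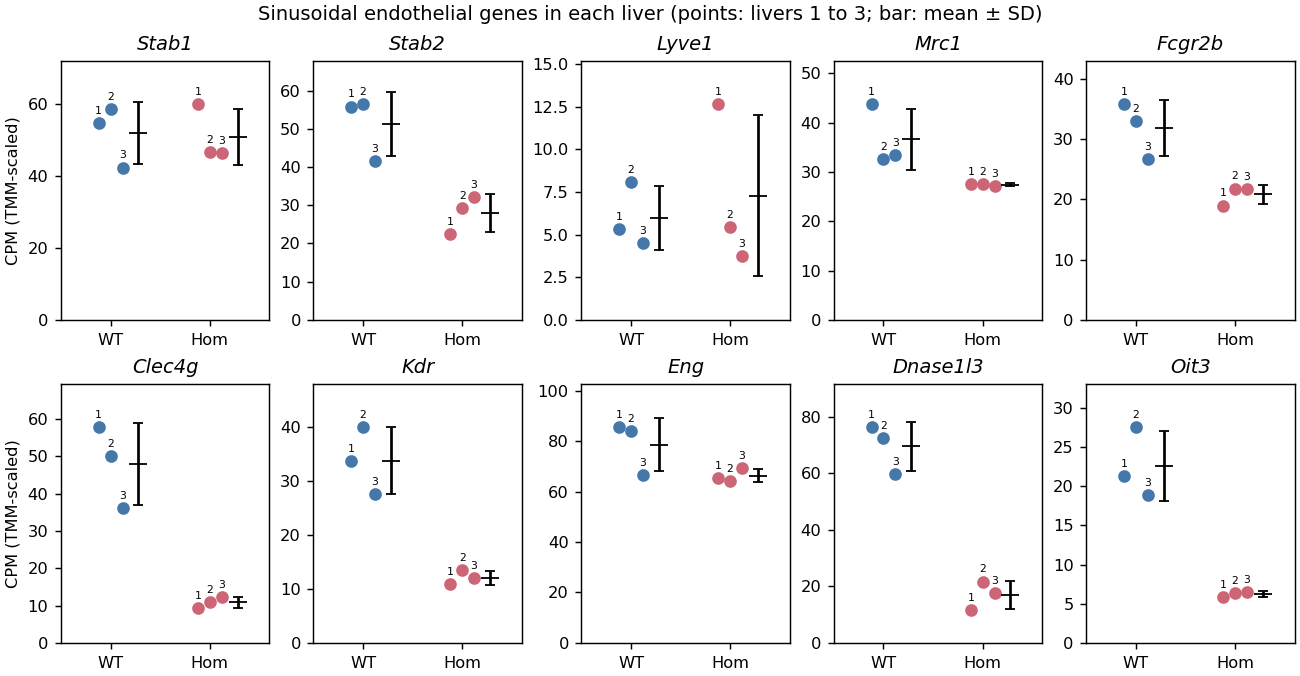
TMM-scaled CPM of each member (vertical axis, from 0, a separate scale for each gene) in 3 WT and 3 Hom livers; numbered points are livers and bars the mean ± SD. The groups are separated for 7 genes, with Clec4g, Dnase1l3 and Oit3 furthest apart, and overlap for Stab1, Lyve1 and Eng.

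Clec4g, the C-type lectin of sinusoidal cells, fell most. Its gene is on mouse chromosome 8 (minus strand, 3707064 to 3720651, GRCm38, GENCODE M21). It was at 57.8, 50.03 and 36.2 CPM in WT replicates 1 to 3 and at 9.47, 10.9 and 12.4 CPM in Hom replicates 1 to 3. The lowest WT liver was thus far above the highest Hom liver. The mean went from 48.0 ± 10.9 (SD, n = 3) to 10.9 ± 1.47 CPM (SD, n = 3), 22.8% of WT, a log2 fold change of −2.13 (SE 0.191, edgeR adjusted p = 0.000548). Of all tested genes, 1.15% had a lower fold change. Of 7 tested genes for related C-type lectins, mostly of macrophages and dendritic cells, 1 was lower (Clec4f) and 3 were higher, with a median of 0.97. None was lower without WT replicate 1, Hom replicate 1 or Hom replicate 3, and 1 was higher without WT replicate 3 or any 1 Hom liver. Among these, Clec4a2, a lectin of myeloid cells, rose from 2.35 to 8.14 CPM (log2 fold change 1.78, SE 0.364, edgeR adjusted p = 0.00886). Clec4a1, of the same family, rose by 1.14 (SE 0.318, edgeR adjusted p = 0.0269), a call that was lost when WT replicate 3 (adjusted p = 0.0643) or any 1 Hom liver (0.0551 to 0.0828) was left out.

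Promoter sequence was examined because Clec4g, Kdr and others fell together while Stab1 did not. RefSeq (GRCm38.p6) gives a start for 7 of the 10 members, all but Lyve1, Oit3 and Dnase1l3. The 250 bases before the start are shown for the member that fell most (Clec4g), for a receptor that fell (Kdr) and for a member that did not pass the test (Stab1), at chr8:3720652-3720901, chr5:75978456-75978705 and chr14:31168642-31168891, all on the minus strand. Capitals mark AGGAAG, a core of the ETS family motif, read on either strand, so that its reverse complement also counts.
Clec4g: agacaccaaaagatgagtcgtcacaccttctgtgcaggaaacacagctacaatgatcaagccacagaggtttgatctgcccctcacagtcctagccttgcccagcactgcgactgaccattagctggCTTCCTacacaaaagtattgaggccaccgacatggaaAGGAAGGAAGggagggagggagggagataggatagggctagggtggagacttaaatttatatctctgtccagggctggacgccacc
Kdr: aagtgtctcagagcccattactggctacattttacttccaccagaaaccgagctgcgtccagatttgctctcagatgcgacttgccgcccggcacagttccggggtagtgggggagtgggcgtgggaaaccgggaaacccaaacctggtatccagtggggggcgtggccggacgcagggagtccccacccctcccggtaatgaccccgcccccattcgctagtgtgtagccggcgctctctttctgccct
Stab1: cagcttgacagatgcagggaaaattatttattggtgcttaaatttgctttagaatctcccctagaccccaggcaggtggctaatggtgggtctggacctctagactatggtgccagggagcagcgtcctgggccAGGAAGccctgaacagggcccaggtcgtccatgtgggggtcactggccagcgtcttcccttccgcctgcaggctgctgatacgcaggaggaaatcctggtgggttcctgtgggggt
AGGAAG was in 5 of the 7 windows (Clec4g, Eng, Mrc1, Stab1 and Stab2), where 29.5% of 32851 windows of the same length held it. Clec4g had 3 matches, of which 2 overlap each other, Stab1 had 1 and Kdr had none. Matches therefore occurred in members that fell and in members that did not. Of the GATA-type letters, AGATAG was in the Clec4g window alone (7.71% of all windows), AGATAA (9.99%) and TGATAA (7.94%) were in none. TATAAA, the letters of a TATA box, was in the Clec4g window alone (12.4%). A match is a description of letters, not a site that is known to be bound.

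DNASE1L3, a secreted nuclease that digests DNA in chromatin and microparticles, fell almost as far as Clec4g. Dnase1l3, on chromosome 14 (minus strand, 7964533 to 7994573), was at 76.3, 72.5 and 59.7 CPM in WT livers and at 11.7, 21.7 and 17.7 CPM in Hom livers. The highest Hom liver was well under the lowest WT liver. The mean fell from 69.5 ± 8.68 to 17.0 ± 5.04 CPM (SD, n = 3 each), 24.5% of WT, with a log2 fold change of −2.03 (SE 0.223, edgeR adjusted p = 0.00101). Of 6 other nuclease genes tested, 2 were lower and 4 did not pass, with a median of −0.40. The lower genes were Dnase2b, a lysosomal acid nuclease, at 57.5% of WT (log2 fold change −0.80, SE 0.136, edgeR adjusted p = 0.00455), and Dnase1, the serum nuclease, at −1.31 (SE 0.293, edgeR adjusted p = 0.0124) with only 8 to 20 counts per liver. Neither passed with library size alone (−0.33 and −0.85, list median 0.058) or pan-endothelial scaling (−0.54 and −1.04, adjusted p = 0.0773 and 0.0721). Dnase1 was also lost without Hom replicate 2 (adjusted p = 0.0568) or 3 (adjusted p = 0.0534). The same held with the replicate block, without (adjusted p = 0.056) or with the length correction (adjusted p = 0.0671).

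Oit3 encodes a secreted protein with a zona pellucida domain and is on chromosome 10 (minus strand, 59422958 to 59441778). It was at 21.3, 27.5 and 18.9 CPM in WT livers and at 5.83, 6.39 and 6.47 CPM in Hom livers. The Hom livers lay close together, and all were under the lowest WT liver. The mean fell from 22.6 ± 4.46 to 6.23 ± 0.345 CPM (SD, n = 3 each), 27.6% of WT, with a log2 fold change of −1.85 (SE 0.161, edgeR adjusted p = 0.000498).

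Kdr encodes VEGFR2, the main signalling receptor for VEGF-A on endothelium, and is on chromosome 5 (minus strand, 75932827 to 75978458). It was at 33.7, 40.0 and 27.5 CPM in WT livers and at 10.8, 13.4 and 11.98 CPM in Hom livers, with no overlap. Its mean was 35.8% of WT, and its log2 fold change was −1.48 (SE 0.157, edgeR adjusted p = 0.000900). For Clec4g, Dnase1l3, Oit3 and Kdr, the call held in all 16 alternative settings, with log2 fold changes from −2.31 to −1.68, −2.24 to −1.56, −1.97 to −1.39 and −1.61 to −1.02.

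In the rest of the VEGF pathway, the share called lower was near the 20.1% of all genes (21.5% of all genes were higher). Of 10 tested genes other than Kdr (ligands, receptors, coreceptors and adaptors), 2 were lower and 1 was higher, with a median of −0.23. Without Hom replicate 1, 4 were lower, and with library size alone none was lower and 2 were higher. The ligand Vegfa was at 141, 150 and 143 CPM in WT livers and at 141, 118 and 114 CPM in Hom livers (log2 fold change −0.21, SE 0.104, 95% interval −0.46 to 0.031, edgeR adjusted p = 0.138), and the sign turned with library size alone (0.24) and pan-endothelial scaling (0.058). Without Hom replicate 1 it was called lower (−0.32, adjusted p = 0.027). Flt1 (VEGFR1) was at 10.96 CPM in WT and 9.81 in Hom livers (−0.16, SE 0.161, edgeR adjusted p = 0.451), with a sign that turned under the same scalings (0.29 and 0.12). Neither passed, in contrast to their partner Kdr, although a difference between genes was not tested. The coreceptor Nrp1 was lower, from 81.1 ± 7.45 to 48.7 ± 1.503 CPM (log2 fold change −0.74, SE 0.089, edgeR adjusted p = 0.00140), as was Flt4 (VEGFR3; −0.93, SE 0.173, adjusted p = 0.0063), while Nrp2 was higher (0.48, SE 0.137, adjusted p = 0.0293). With library size alone Nrp1 (−0.28, adjusted p = 0.096) and Flt4 (−0.48, adjusted p = 0.0704) were no longer called, nor was Nrp1 with pan-endothelial scaling (−0.45, adjusted p = 0.0617). The call of Nrp2 was lost with the length correction and when WT replicate 2, WT replicate 3 or any 1 Hom liver was left out.

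Eng encodes endoglin, a coreceptor that binds BMP9 and BMP10 together with ALK1 (Acvrl1), and is on chromosome 2 (plus strand, 32646595 to 32682669). It was at 85.4, 83.8 and 66.4 CPM in WT livers and at 65.3, 64.3 and 69.3 CPM in Hom livers. WT replicate 3 lay among the Hom livers, so the groups overlapped. The log2 fold change was −0.24 (SE 0.111, 95% interval −0.51 to 0.017, edgeR adjusted p = 0.116). Eng was called lower without WT replicate 3 (−0.36, adjusted p = 0.0238) and with a correction for gene length (−0.32, adjusted p = 0.0454), and its sign turned with library size alone (0.21) and pan-endothelial scaling (0.047).

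In the BMP and endoglin pathway, the shares called were near those of all genes (20.1% lower and 21.5% higher), so its genes are read singly. Of 19 other genes tested, 4 were lower and 5 higher, with a median of −0.20. Without WT replicate 2 or Hom replicate 3, 2 were lower, as with library size alone or pan-endothelial scaling. Bmp2, a ligand made by sinusoidal cells that induces hepcidin in hepatocytes, was at 23.6, 20.0 and 15.7 CPM in WT livers and 5.97, 5.24 and 6.25 CPM in Hom livers (log2 fold change −1.76, SE 0.174, edgeR adjusted p = 0.000744). Bmp6, the other hepcidin-inducing ligand of these cells, moved the opposite way, from 5.58, 6.22 and 4.24 CPM to 31.6, 21.5 and 29.6 CPM (log2 fold change 2.36, SE 0.202, edgeR adjusted p = 0.000494). Both ligands were separated between groups, and within each WT liver Bmp6 stood at 0.282 to 0.371 of Bmp2 per length (TPM), against 4.91 to 6.29 in Hom livers. Gdf2, which encodes BMP9, the endoglin ligand, fell to 49.1% of WT (log2 fold change −1.03, SE 0.171, edgeR adjusted p = 0.00417). Its receptor gene Acvrl1 rose from 4.38 ± 1.005 to 8.58 ± 0.956 CPM (0.97, SE 0.199, adjusted p = 0.00902). Tgfbr2, a receptor for TGF-beta present on many cell types, rose from 31.1 to 91.4 CPM (1.56, SE 0.106, adjusted p = 0.000277).

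The stabilins, a pair of large scavenger receptors, differed. Stab2, which clears hyaluronan and other polyanions, is on chromosome 10 (minus strand, 86841198 to 87008025). It was at 55.8, 56.4 and 41.6 CPM in WT livers and at 22.4, 29.2 and 32.1 CPM in Hom livers, without overlap. Its mean fell from 51.3 ± 8.40 to 27.9 ± 4.98 CPM (SD, n = 3 each), 54.3% of WT (log2 fold change −0.88, SE 0.171, edgeR adjusted p = 0.00737). The call was lost in 1 of 16 alternative settings, library size alone (−0.42, adjusted p = 0.125). Stab1, on chromosome 14 (minus strand, 31139013 to 31168641), was at 54.8, 58.6 and 42.3 CPM in WT livers and at 59.9, 46.5 and 46.3 CPM in Hom livers, so the groups overlapped. Its log2 fold change was −0.028 (SE 0.155, 95% interval −0.39 to 0.34, edgeR adjusted p = 0.899), and it was called higher with library size alone (0.42, adjusted p = 0.0469). The Stab1 to Stab2 ratio of TPM was 0.645, 0.721 and 0.702 in WT livers and 1.76, 1.05 and 0.965 in Hom livers. This ratio does not depend on scaling, and it was highest in Hom replicate 1. It was picked after the values had been seen and is given with no test, like the other gene ratios here.

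LYVE1, a hyaluronan receptor, was the least abundant member in WT livers. Lyve1, on chromosome 7 (minus strand, 110850607 to 110863239), was at 5.31, 8.08 and 4.49 CPM in WT livers and at 12.7, 5.44 and 3.75 CPM in Hom livers. Hom replicate 1 was the highest of all and Hom replicate 3 the lowest. The log2 fold change was 0.29 (SE 0.463, 95% interval −0.81 to 1.38, edgeR adjusted p = 0.645), an interval that includes both a marked fall and a rise, and without Hom replicate 1 it was −0.37 (adjusted p = 0.389). Of 8 tested genes for hyaluronan synthesis, binding and breakdown, 1 was lower and 2 were higher. Hyal1, a lysosomal hyaluronidase, fell to 48.1% of WT (−1.06, SE 0.161, edgeR adjusted p = 0.00301), and the receptor genes Hmmr (1.05, SE 0.274, adjusted p = 0.0212) and Cd44 (0.95, SE 0.313, adjusted p = 0.0461) rose. Cd44 was not called in 8 of the alternatives and Hmmr in 4. Has2, a hyaluronan synthase, had 0, 0 and 1 count in WT and 2, 1 and 1 in Hom livers and was not tested.

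Mrc1, the mannose receptor of sinusoidal cells and macrophages, is on chromosome 2 (plus strand, 14229392 to 14332057). It was at 43.7, 32.7 and 33.4 CPM in WT livers and at 27.6, 27.5 and 27.1 CPM in Hom livers. The Hom livers were nearly alike and all lay under WT, with a mean of 74.9% of WT (log2 fold change −0.42, SE 0.123, edgeR adjusted p = 0.0323). This was the weakest of the 7 calls. It was lost without Hom replicate 1, 2 or 3 (−0.42, −0.42 and −0.41, adjusted p of 0.0654 to 0.0941), with upper-quartile factors (−0.33) and with pan-endothelial scaling (−0.13), and the sign turned with library size alone (0.028). Of its 3 relatives, 2 were higher: Mrc2, a collagen-binding receptor of mesenchymal cells, rose from 2.85, 3.27 and 4.06 CPM to 17.4, 14.3 and 17.0 CPM (2.26, SE 0.171, adjusted p = 0.000369), and Ly75 (DEC-205) rose by 1.53 (SE 0.278, adjusted p = 0.00579). The Mrc1 to Mrc2 ratio of TPM was 9.14 to 16.7 in WT and 1.75 to 2.11 in Hom livers. Mrc1 was thus still the more abundant of the pair in every Hom liver.

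Fcgr2b encodes the inhibitory receptor FcγRIIB, which in sinusoidal cells takes up small immune complexes. It is on chromosome 1 (minus strand, 170958617 to 170976547). Its level was 35.7, 33.0 and 26.6 CPM in WT livers and 18.95, 21.8 and 21.7 CPM in Hom livers, without overlap. The mean was 65.5% of WT (log2 fold change −0.61, SE 0.127, edgeR adjusted p = 0.00943), and the call was lost with library size alone (−0.16) and pan-endothelial scaling (−0.32, adjusted p = 0.142). Of its transcript 50-mers, 8.6% also occur in other genes, Fcgr3 above all, so a part of the reads could be split between them. Fcgr3, an activating Fc receptor of myeloid cells, rose from 11.03 ± 5.03 to 26.1 ± 3.43 CPM (1.24, SE 0.300, edgeR adjusted p = 0.0164), and its TPM went from 0.219 to 0.488 of Fcgr2b in WT livers to 1.15 to 1.45 in Hom livers. That call was lost without WT replicate 3 (1.14, adjusted p = 0.0518) or Hom replicate 2 (1.13, adjusted p = 0.0558). Fcgr1, a high-affinity receptor of monocytes and macrophages, rose by 1.66 (SE 0.430, adjusted p = 0.0211), and Fcer1g, the signalling chain of the activating receptors, was at 18.4 CPM in WT and 33.3 in Hom livers (0.85, SE 0.361, adjusted p = 0.0979). Fcgrt, the neonatal Fc receptor, fell to 63.9% of WT (−0.65, SE 0.0814, adjusted p = 0.00158). In all, 1 of 6 tested Fc receptor genes was lower and 3 were higher. The call of Fcgrt was lost with library size alone (−0.19) and pan-endothelial scaling (−0.38), that of Fcgr1 in 5 of the alternatives, and Fcer1g was called higher in 5 of them. Of the 6 genes, 5 were higher without WT replicate 1, 1 without WT replicate 2 and none without WT replicate 3 or Hom replicate 2.

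Among the other scavenger receptors, 3 of 10 tested genes fell and 2 rose (median −0.28), where 20.1% and 21.5% of all genes did. Scarf1, an endothelial receptor for modified lipoprotein, fell to 62.6% of WT (−0.67, SE 0.154, edgeR adjusted p = 0.0133), and Cd163, the macrophage receptor for haemoglobin-haptoglobin complexes, fell by 2.89 on the log2 scale (SE 0.654, edgeR adjusted p = 0.0129). The fatty acid receptor Cd36 rose by 1.32 (SE 0.118, adjusted p = 0.000535) and Cxcl16, a membrane chemokine that also binds oxidised lipoprotein, by 2.15 (SE 0.280, adjusted p = 0.00174). The call of Scarf1 was lost with library size alone (−0.21, adjusted p = 0.392) and pan-endothelial scaling (−0.39, adjusted p = 0.134), and that of Cd163 without Hom replicate 3 (−2.69, adjusted p = 0.0536).

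**Figure D2:**
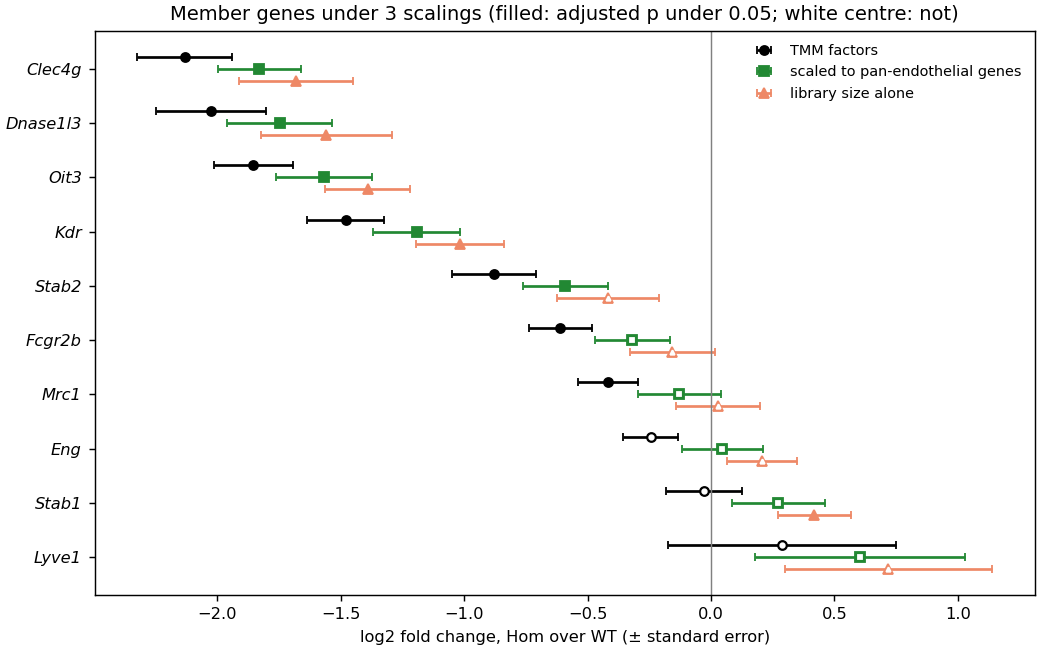
log2 fold change of each member, Hom over WT, with its standard error under TMM factors, scaling to pan-endothelial genes and library size alone; filled symbols passed an adjusted p of 0.05 and white centres did not. Clec4g, Dnase1l3, Oit3 and Kdr are filled and under 0 in all 3 scalings, while Stab1 lies on both sides of 0.

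Whether the members moved with other endothelial genes was asked with 22 pan-endothelial genes, none of them a member. Of these 22 genes, 8 were lower and 1 was higher, with a median of −0.35 (all genes: 20.1% lower and 21.5% higher). The count of 8 fell to 5 without WT replicate 1, 4 without WT replicate 2, 5 without Hom replicate 1 and 3 without Hom replicate 2 or 3, and to 1 with library size alone. Ptprb (VE-PTP, an endothelial phosphatase) fell to 49.1% of WT (−1.03, SE 0.124, edgeR adjusted p = 0.00141) and Robo4 to 47.1% (−1.09, SE 0.189, edgeR adjusted p = 0.00495), while Cd93 rose from 7.38 ± 1.48 to 22.2 ± 1.52 CPM (1.58, SE 0.158, edgeR adjusted p = 0.000758). Robo4 was not called with library size alone (−0.63, adjusted p = 0.0542). Cdh5 (VE-cadherin), chosen after its value was seen, was at 29.1 CPM in WT and 20.03 CPM in Hom livers and did not pass (−0.54, SE 0.224, edgeR adjusted p = 0.0920), but was called lower without WT replicate 3 (−0.73, adjusted p = 0.0283). Pecam1 (CD31), chosen in the same way, was at 17.3 CPM in WT and 18.2 CPM in Hom livers (0.078, SE 0.107, adjusted p = 0.586). It was called higher with library size alone (0.53, adjusted p = 0.0171), and its sign turned without WT replicate 3.

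Each member's TPM was therefore divided, within each liver, by the summed TPM of the pan-endothelial list, a ratio on which library scaling has no effect. On the log2 scale the ratio was lower in Hom livers by 1.83 for Clec4g (−0.822, −0.884 and −1.03 in WT and −2.86, −2.76 and −2.60 in Hom livers). The differences were −1.79 for Dnase1l3, −1.55 for Oit3, −1.19 for Kdr, −0.55 for Stab2 and −0.32 for Fcgr2b. For these 6 members the groups were separated in every liver (p = 0.1 for each in an exact permutation test, two-sided, the smallest that 3 livers against 3 allow), where 7.52% of 13609 genes did. The ratio of the other 4 members overlapped between groups, with differences of −0.12 for Mrc1 (exact p = 0.4), 0.053 for Eng (p = 0.4), 0.26 for Stab1 (p = 0.3) and 0.43 for Lyve1 (p = 0.7). In the count fit scaled to the same list, 5 members were lower (Clec4g, Dnase1l3, Oit3, Kdr and Stab2), where 4.34% of all genes were lower. With library size alone, 4 members were lower, against 4.65% of all genes. Clec4g, Dnase1l3, Oit3 and Kdr were lower under each of these measures.

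Levels between members were compared per length, as TPM, which is not corrected for library composition, so the order is read only within a group. In WT livers Clec4g led (59.2 ± 19.2 TPM, SD, n = 3), followed by Fcgr2b (33.9 ± 8.16), Eng (33.5 ± 7.22), Dnase1l3 (27.6 ± 6.02), Stab2 (13.8 ± 3.59), Oit3 (12.1 ± 2.26), Mrc1 (10.1 ± 2.94), Stab1 (9.45 ± 2.05), Kdr (8.29 ± 1.68) and Lyve1 (3.33 ± 0.931). The ranges of neighbours in this order overlapped, except between Dnase1l3 and Stab2 and between Kdr and Lyve1. In Hom livers Eng led (43.3 ± 3.66 TPM), followed by Fcgr2b (33.9 ± 4.85), Clec4g (20.5 ± 3.81), Stab1 (14.1 ± 1.14), Stab2 (11.8 ± 2.72), Mrc1 (11.5 ± 0.786), Dnase1l3 (10.5 ± 3.76), Lyve1 (6.13 ± 3.53), Oit3 (5.19 ± 0.636) and Kdr (4.58 ± 0.806). Here Eng, Fcgr2b and Clec4g were separated from their next neighbour, and from Stab1 down the ranges of neighbours overlapped. As shares of the set's summed TPM, Clec4g made up 25.7% to 30.0% in WT and 11.4% to 14.0% in Hom livers, and Dnase1l3 12.8% to 13.8% and 4.53% to 8.10%. Eng went from 15.4% to 16.5% in WT livers to 25.8% to 27.4% in Hom livers. The TPM of Stab2 rests on an implied length of 5269 bases, while its longest coding transcript in GENCODE has 8228 bases. For Fcgr2b these lengths are 1366 and 3544 bases, and for Dnase1l3 3655 and 4747 bases. The ranks of these genes, and the levels of the ratios to Stab2 and Fcgr2b, thus depend on the length used.

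**Figure D3:**
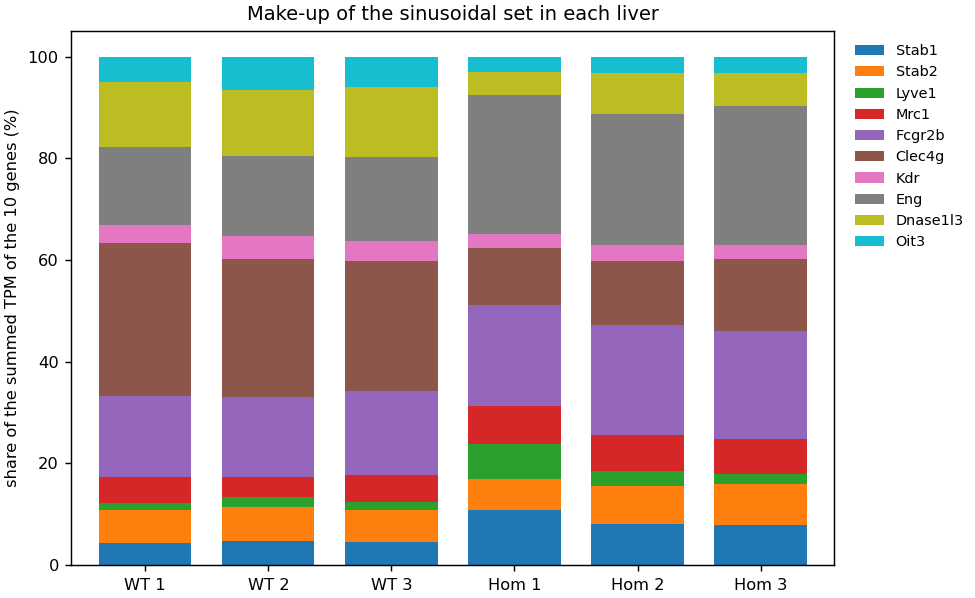
Share of each member in the summed TPM of the 10 genes (vertical axis, percent) in each of 6 livers. Clec4g is the largest share in all 3 WT livers and Eng in all 3 Hom livers.

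The livers also ranked in a like way across members. Within the WT group, replicate 3 was the lowest liver for 9 of the 10 members, all but Mrc1. Within the Hom group, replicate 1 was the lowest for 6 members (Stab2, Clec4g, Oit3, Fcgr2b, Kdr and Dnase1l3) and the highest for 3 (Stab1, Lyve1 and Mrc1). Hom replicate 1 is the liver without counts of Ddx3y and Kdm5d. Without it, 6 members were lower, Mrc1 being lost, and the log2 fold changes were −2.04 for Clec4g, −1.82 for Dnase1l3, −1.81 for Oit3, −1.41 for Kdr, −0.75 for Stab2 and −0.55 for Fcgr2b.

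A list of 20 further genes known from sinusoidal cells had 14 members lower, none higher and a median of −0.74, where 20.1% of all genes were lower. Ehd3, an endocytic recycling protein, fell from 92.4 ± 11.02 to 20.3 ± 4.54 CPM (−2.19, SE 0.175, edgeR adjusted p = 0.000426), and Bmp2 was next. Chosen after their values were seen, the scavenger chemokine receptor gene Gpr182 fell to 37.2% of WT (−1.43, SE 0.196, edgeR adjusted p = 0.00207), Wnt2, an angiocrine ligand, to 45.1% (−1.14, SE 0.232, edgeR adjusted p = 0.00865) and Gata4, a transcription factor of these cells, to 67.0% (−0.57, SE 0.170, edgeR adjusted p = 0.0327). Wnt2 and Gata4 were not called with library size alone (−0.68 and −0.11) or pan-endothelial scaling (−0.88 and −0.33), and Gata4 was not called in 8 alternatives in all, among them without Hom replicate 1 (−0.59, adjusted p = 0.0698). Of the 20 genes, 3 were lower with library size alone and 6 with pan-endothelial scaling, against 4.65% and 4.34% of all genes.

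Of 14 tested genes of ordinary capillaries and large vessels, 5 were higher (21.5% of all genes were), 1 was lower and 8 did not pass, with a median of 1.04 (9 higher with library size alone). Cd34, a surface mucin of capillary endothelium and progenitor cells, was at 2.40, 2.44 and 1.91 CPM in WT livers and at 17.7, 14.6 and 13.6 CPM in Hom livers (2.76, SE 0.173, edgeR adjusted p = 0.000224). Col15a1, a basement membrane collagen, rose from 8.73 ± 2.32 to 47.8 ± 7.04 CPM (2.45, SE 0.202, edgeR adjusted p = 0.000462), and Vwf, von Willebrand factor, named after its value was seen, from 6.97 ± 0.814 to 21.03 ± 3.06 CPM (1.59, SE 0.150, adjusted p = 0.000638). The gene that fell was Plvap, which encodes the protein of fenestral diaphragms, at 47.0% of WT (−1.09, SE 0.197, adjusted p = 0.00579; −0.64, adjusted p = 0.0614, with library size alone). Per liver, Cd34 stood at 0.0199, 0.0233 and 0.0254 of Clec4g in TPM in WT and at 0.882, 0.640 and 0.527 in Hom livers. Sele and Apln were at 0 in some livers and were not tested.

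**Figure D4:**
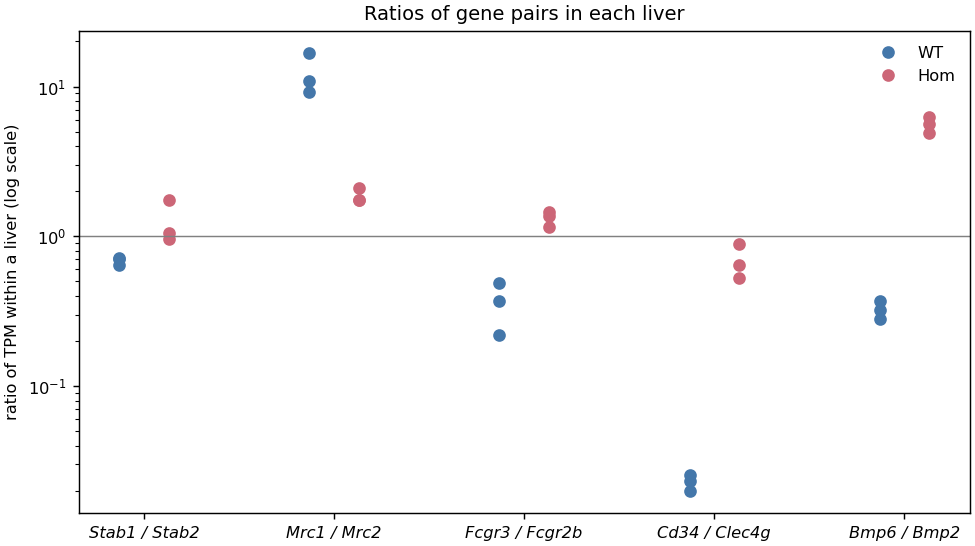
Ratio of TPM of 5 gene pairs (log axis) in each WT and Hom liver. The groups are separated for every pair, and Cd34 over Clec4g moves furthest, from 0.0199 to 0.0254 in WT livers to 0.527 to 0.882 in Hom livers.

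Of 6 tested lymphatic genes, 1 was lower (Flt4) and 2 were higher, or 1 without any 1 liver other than WT replicate 3. Prox1, also expressed by hepatocytes, rose from 77.2 to 167 CPM (1.12, SE 0.256, edgeR adjusted p = 0.0135) and Pdpn (podoplanin) from 1.34 to 3.82 CPM (1.51, SE 0.475, edgeR adjusted p = 0.0399), a call lost in 7 of the alternatives. The lymphatic genes Ccl21a and Mmrn1, named after their values were seen, had 1.36 and 0.826 CPM in WT and 4.16 and 2.36 CPM in Hom livers and did not pass (edgeR adjusted p = 0.134 and 0.184). Ccl21a was called higher with library size alone (2.08, adjusted p = 0.0497) and without WT replicate 3 (2.75, adjusted p = 0.0376). Ccl21a and Mmrn1 were lowest among Hom livers in replicate 3, the liver that was also lowest for Lyve1. The summed TPM of the lymphatic list was 22.5 to 30.0 in WT and 64.6 to 82.8 in Hom livers. It includes Prox1, with 888 to 1572 counts in WT and 2934 to 4504 in Hom livers, so it is not a measure of lymphatic vessels alone. Such sums, here and for the macrophage lists, are not corrected for library composition and are given as levels with no test.

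Macrophages express several members too. Of 12 tested Kupffer cell genes, 3 were lower, a share near the 20.1% of all genes, none was higher and 9 did not pass, with a median of −0.75. Without WT replicate 1, 2 were higher, and without Hom replicate 3, 1 was lower. Cd163 and Timd4 (a receptor for phosphatidylserine; −2.38, SE 0.536, edgeR adjusted p = 0.0126) fell, as did Clec4f, a Kupffer cell lectin, from 125, 58.2 and 49.1 CPM to 14.0, 34.2 and 29.1 CPM (−1.59, SE 0.443, edgeR adjusted p = 0.0271). WT replicate 1 was high for Clec4f, and without it that call was lost (−1.06, adjusted p = 0.0541), as it was without Hom replicate 1 (−1.29, adjusted p = 0.0539) or 3 (−1.68, adjusted p = 0.0705) and with library size alone (−1.14, adjusted p = 0.0839). Summed over the list, Kupffer genes were at 287 to 540 TPM in WT and 343 to 551 TPM in Hom livers, which overlap, and none was at 0. Of 13 genes of monocytes and other macrophages, 8 were higher, none was lower and 5 did not pass, with a median of 1.70. Their summed TPM was 139 to 360 in WT and 1500 to 1960 in Hom livers. This sum includes Spp1, which is also on the cholangiocyte list and had 477 to 1028 counts in WT and 11144 to 16995 in Hom livers. The sum is therefore not a measure of macrophages alone. The count of 8 fell to 5 without WT replicate 2 or Hom replicate 2. Among them Cx3cr1, a chemokine receptor of monocytes, went from 1.13 ± 0.706 to 31.3 ± 4.93 CPM (4.75, SE 0.389, adjusted p = 0.000460), and Spp1 (osteopontin, also made by bile duct cells) from 43.3 ± 14.1 to 596 ± 119 CPM (3.78, SE 0.285, adjusted p = 0.000369). The part of these cells in the values of Mrc1, Stab1, Lyve1 and Fcgr2b was not tested.

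Hepatocyte genes were lower in 13 of 18 cases, where 20.1% of all genes were, and none was higher (median −0.77). The count was 7 without Hom replicate 3 or with library size alone and 6 with pan-endothelial scaling. The lower genes included Ttr at 27.7% and Apoa2 at 33.9% of WT (edgeR adjusted p = 0.000487 and 0.000811), so sinusoidal genes were not alone in falling. All 8 cholangiocyte genes were higher (median 3.22), for example Prom1 (4.78, SE 0.318, edgeR adjusted p = 0.000259) and Krt7 (2.63, SE 0.198, edgeR adjusted p = 0.000369). Of 12 stellate cell genes, 2 were lower, Ecm1 (−2.30, SE 0.105, edgeR adjusted p = 0.000107) and Reln (−1.55, SE 0.205, adjusted p = 0.00184), and 6 were higher, for example Col1a1 (3.32, SE 0.201, adjusted p = 0.000200) and Pdgfrb (1.72, SE 0.106, adjusted p = 0.000215). None of 3 tested B cell genes (Cd79a, Cd79b and Ebf1) passed, at 0.419 to 1.87 CPM on average, but Cd79a did without WT replicate 1 (2.29, adjusted p = 0.025).

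**Figure D5:**
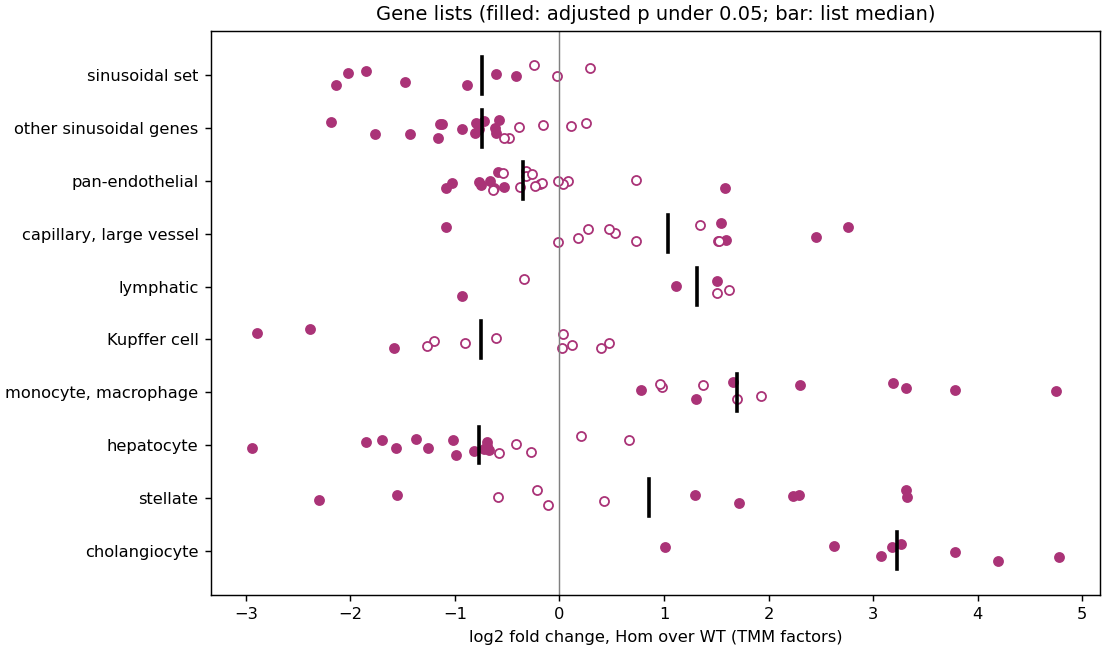
log2 fold change, Hom over WT, of each tested gene (points) by list, with the list median as a bar; filled points passed an adjusted p of 0.05. The sinusoidal set and the other sinusoidal genes have medians of −0.75 and −0.74, the capillary and large-vessel list a median of 1.04.

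Among 12462 other genes with a mean of at least 1 CPM, those whose profile over the 6 livers was nearest to Stab2 were Plxnc1, Ccdc162, Rad54l2, Robo4 and Unc93a2, with a root mean square difference of centred log2 CPM of 0.0651 to 0.112, against a median of 0.524 for all of them. Plxnc1 and Robo4 are on the sinusoidal and pan-endothelial lists. The nearest member to Stab2 was Fcgr2b (0.174), and the farthest was Lyve1 (0.857), while Stab1 stood at 0.510. For Mrc1 the nearest were Ing1, Kansl1, Cept1, Arl6ip4 and Cstf3 (0.0254 to 0.0502, median of all 0.333), none of them on an endothelial list, and the nearest members were Eng (0.157) and Fcgr2b (0.164). All profiles share the same 6 libraries and their scaling, and the likeness is given as a description.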

How the data were processed

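RNA from 3 WT and 3 Hom livers was extracted with Trizol and sequenced on DNBSEQ by BGI Genomics. The submitters' processing notes name mm9, HISAT2 2.0.4, Bowtie2 2.2.5 and RSEM 1.2.12; the annotation and strandedness are not given in the sources used here. The authors deposited 1 table of expected counts (not scaled between samples), which were rounded here. The authors also deposited FPKM values, scaled by gene length and library size, which gave the implied gene lengths, and the deposited TPM values were used for levels and ratios between genes. The deposited group means carry crossed names for all 17975 genes (tolerance 0.02) and were not used, nor were any fold changes of the authors.

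edgeR 4.0.16 in R 4.3.3 was run on the counts (filterByExpr, TMM factors of 0.806 to 0.924 in WT and 1.09 to 1.23 in Hom livers, glmQLFit and glmQLFTest on group), with Benjamini-Hochberg adjustment over 13805 genes, a threshold of 0.05 and no minimum fold change. CPM are TMM-scaled. The procedure was tested on simulated data with planted changes of random direction. These lacked the shift in composition seen here, so that test does not bear on the choice of scaling. Ratios to the summed TPM of the pan-endothelial list were compared by exact permutation over livers. Positions and shared 50-mers are from GENCODE M21 (GRCm38) and promoters from RefSeq (GRCm38.p6); no coordinate of the authors' build was used.

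The members and lists were chosen with earlier results of these data known. Named were the members, their direct binding partners, Nek7 and, per list, the 2 genes with the smallest adjusted p in each direction (or, where fewer passed, up to 3 with the smallest), unless stated otherwise. A few further genes are named as chosen after their values were seen. Profiles were compared on log2 CPM with a prior count of 2, leaving out predicted-gene names. No library was a repeat of another in its group (lowest chi-square per degree of freedom 23.8). Same-numbered WT and Hom livers are different mice, and their deviations from the group means did not correlate positively. Alternatives were DESeq2 1.42.0, library size alone, upper-quartile and TMMwsp factors, factors that equalise the pan-endothelial genes, no filter or at least 10 counts in every liver, a replicate block, a loess correction for gene length, and each liver left out. Total counts per library were nearly the same, and depth limits genes of low count. Nothing in the sources says whether the mice of a group were handled separately. The p-values set the group difference against the spread between these livers, and a batch shared by a group could not be told apart from genotype.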

Additional observations from a re-analysis of the deposited data

How the results depend on the processing

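Of 160 comparisons of the 10 members with an alternative setting, 138 kept direction and side of the threshold, 8 lost the call, 2 gained one and 12 changed sign, 11 of these in members that were not called. With library size alone, 642 genes were lower and 6574 higher (91.1% of calls higher, against 51.7%), 4 members were lower and 1 higher, and the median of the members was −0.287. With pan-endothelial scaling, 599 genes were lower (85.9% of calls higher) and the median of the members was −0.455. With upper-quartile factors 62.8% of calls were higher. Leaving out 1 liver gave 1767 to 2750 lower genes, the fewest without Hom replicate 3 and 1830 without Hom replicate 2. Stab1 was at 0.418 with library size alone, 0.0631 with upper-quartile factors, 0.272 with pan-endothelial scaling, 0.0194 with at least 10 counts in every liver, and −0.161 to 0.0631 with 1 liver left out. With library size alone, Stab2 was at −0.418, Fcgr2b at −0.156, Mrc1 at 0.0275, Eng at 0.208, Vegfa at 0.236 and Flt1 at 0.292. With pan-endothelial scaling, Fcgr2b was at −0.32, Mrc1 at −0.129, Eng at 0.0466, Vegfa at 0.0583 and Flt1 at 0.122. Mrc1 was at −0.327 with upper-quartile factors and Eng at −0.317 with the length correction. With 1 liver left out, Lyve1 ranged from −0.372 to 0.599, Mrc1 from −0.497 to −0.273, Eng from −0.359 to −0.185 and Pecam1 from −0.0151 to 0.128. The cause was not tested beyond the shift of all genes, a median of 0.453 with library size alone and 0.269 with pan-endothelial scaling. With the replicate block, 2210 genes were lower and 2379 higher, and 7 members were lower; the livers share only a number, and their deviations correlated at −0.108, −0.0564 and −0.0493. For 60 other named genes, 867 of 953 comparisons kept direction and call, 70 lost the call, 11 gained one and 5 changed sign. FPKM gave the same order of levels as TPM, and the geometric mean of the pan-endothelial list gave ratios that differed in sign for none of the members. Depth limits Lyve1, with 73 to 271 counts per liver.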
